A study of Mus musculus with 16 samples.

Results

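Glycerol 3-phosphate dehydrogenases form the glycerol phosphate shuttle, which carries the hydrogen of cytosolic NADH into the respiratory chain. Cytosolic Gpd1 reduces dihydroxyacetone phosphate to glycerol 3-phosphate, and Gpd2, in the inner mitochondrial membrane, oxidizes it back and passes the electrons to ubiquinone. Gpd1l is a cytosolic relative of Gpd1. In the kidney, glycerol 3-phosphate is also the backbone of newly made glycerolipids, and the shuttle works beside the malate-aspartate shuttle. The 3 genes are the rows GPD2, GPD1 and GPD1L of the 18132 in the deposited table. GPD2 was chosen by its values in untreated kidneys, which were higher in IL-33-deficient (IL-33 KO) than in wildtype (WT) mice, and GPD1 and GPD1L were added as its cytosolic partners.

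RNA of 1 kidney from each of 16 mice was hybridized to an Illumina BeadChip. The mice were 8 weeks old and of the C57BL/6J BomTac background, to which the Il33 deletion had been crossed for 10 generations. The 4 groups were 2 untreated WT and 2 untreated IL-33 KO kidneys (the controls), and 7 WT and 5 IL-33 KO kidneys taken 24 h after unilateral ureteral obstruction (UUO), in which a metal clip closed a ureter. The obstructed kidneys came from 2 sets of mice, set 1 with 3 WT and 2 IL-33 KO and set 2 with 4 WT and 3 IL-33 KO kidneys, whereas the labels state no set for the controls. By the paper's methods UUO mice also had anaesthesia, flank surgery and buprenorphine, and the controls were untreated, not sham-operated. In the changes after UUO below, obstruction cannot be told apart from these or from the unstated set of the controls. Values below are log2 intensities after quantile normalization, single kidneys are named by the number in their label, and a gene was called in the comparison of genotypes after UUO where it met the study's threshold in limma (fold change over 1.3, p below 0.05 and Benjamini-Hochberg adjusted p below 0.25) and elsewhere at an adjusted p under 0.05.

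Il33 was at 7.62 and 8.02 in the WT controls and at 6.85 and 6.88 in the IL-33 KO controls, and after UUO it ranged from 8.39 to 9.57 in WT and from 6.80 to 7.02 in IL-33 KO kidneys, so it followed the labels in all 16. Proximal tubule genes were bright: Slc34a1, the main phosphate carrier of that segment, was at 14.20 or above in all 4 controls. Havcr1, a gene of injured tubules chosen after its values were seen, was between 7.07 and 7.37 in the controls, 10.42 in WT UUO kidney 3820, 12.84 in WT UUO kidney 3818 and 13.12 to 13.95 in the other 10 obstructed kidneys. By this gene kidneys 3818 and 3820 stood nearest to the controls. The main limma results on Gpd2 and Gpd1 that compare them over both sets are given with and without both.

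Gpd2 lies on chromosome 2, from 57237678 to 57370719 in the GRCm38.p6 annotation of RefSeq, with 2 transcripts that start at different positions. Gpd1 lies on chromosome 15 (99717587 to 99725014) and Gpd1l on chromosome 9 (114899339 to 114933987), whereas the deleted gene, Il33, lies on chromosome 19. The deposited table holds 1 intensity per gene symbol, so the 2 starts of Gpd2 could not be told apart. The windows from 250 bases before to 50 bases after each start are shown because they differ in composition. Which transcripts the only Gpd2 row measures is not stated.
Gpd2 start 1, chr2:57237428-57237727, plus strand: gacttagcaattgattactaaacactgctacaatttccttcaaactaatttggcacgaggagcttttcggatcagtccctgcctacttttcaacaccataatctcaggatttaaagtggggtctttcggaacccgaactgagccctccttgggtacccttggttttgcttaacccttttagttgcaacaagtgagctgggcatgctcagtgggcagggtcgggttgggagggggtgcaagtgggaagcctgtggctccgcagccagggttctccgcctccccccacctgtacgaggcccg
Gpd2 start 2, chr2:57238132-57238431, plus strand: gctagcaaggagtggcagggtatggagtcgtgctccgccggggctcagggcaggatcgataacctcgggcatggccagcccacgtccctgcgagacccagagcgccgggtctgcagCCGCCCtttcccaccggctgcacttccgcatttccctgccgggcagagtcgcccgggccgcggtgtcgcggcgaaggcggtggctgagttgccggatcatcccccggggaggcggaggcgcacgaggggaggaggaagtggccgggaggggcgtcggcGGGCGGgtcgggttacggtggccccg
The capitals mark GGGCGG, the GC box, on either strand (CCGCCC where it lies on the other strand). The first window held 9 CG dinucleotides and no GC box, and the second held 34 CG dinucleotides and 2 GC boxes, where the median of all 32851 windows in the RefSeq table was 7 CG dinucleotides and 35.7% of the windows held a GC box. The core motif of nuclear receptors, AGGTCA, was in neither window on either strand, and 16.3% of all windows held it. GC content was 53.0% in the first window and 72.7% in the second.

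Gpd2 was high in the controls that lack IL-33. It was at 7.52 and 7.32 in the WT controls and at 8.62 and 8.54 in the IL-33 KO controls, a difference of 1.16 on the log2 scale (2.23-fold). The pairs did not overlap, but this is the difference for which the gene was chosen, with 2 kidneys on each side, and it was therefore not tested. By size it was number 4 of 18132 rows in this contrast. In the same 4 kidneys Gpd1 differed by 0.04 (8.58 and 8.999 in WT, 8.77 and 8.90 in IL-33 KO) and Gpd1l by -0.07. No row was called between the controls by limma (0%, with 664 rows at an unadjusted p under 0.05). The genes measured next to Gpd2 on its chromosome, Nr4a2 upstream and Ermn downstream, differed by -0.03 and 0.07. Both were dim, with means over the 16 kidneys of 7.06 and 6.84 where the median row was at 7.05. Background compresses differences at this brightness, so these values do not bound a change in either transcript. The summed intensity of the proximal tubule markers did not overlap between the control groups either. It was 29043 to 29953 in WT and 30641 to 30810 in IL-33 KO. Nor did that of the smooth muscle markers, at 1364 to 1815 and 1237 to 1304, while the other 8 of 10 marker lists overlapped. With 2 kidneys on each side, groups often separate with no difference between them, and the share of all rows that did so was not counted. Single proximal tubule markers went both ways: Slc22a6 0.13, Slc7a13 0.04, Slc34a1 0.03, Lrp2 -0.16 and Slc5a2 -0.15. The part of these marker lists in the Gpd2 difference was not tested.

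After UUO, Gpd2 did not stand apart by genotype. In set 1 the IL-33 KO kidneys read 7.82 and 7.91, in set 2 they read 7.21, 7.30 and 7.22. In set 1 the WT kidneys read 7.01, 8.005 and 7.93, in set 2 they read 7.25, 7.34, 7.22 and 7.19. Every obstructed kidney lay below both IL-33 KO controls, but the high values of those controls chose the gene, so this position is not a result about UUO. Among the obstructed kidneys the genotypes overlapped in Gpd2. Of the 10 marker lists, 1 did not overlap between them, smooth muscle, at 1607 to 2385 in WT and 2766 to 3080 in IL-33 KO kidneys. In that list 1 of 4 markers was called higher. The share of all rows that did not overlap was not counted. The mean of Gpd2 after UUO was 7.49 ± 0.35 (SD, n = 5) without IL-33 and 7.42 ± 0.39 (SD, n = 7) with it, a log2 difference of 0.07 with a standard error of 0.20 and a 95% interval from -0.36 to 0.49 (adjusted p = 0.949 from limma; exact two-sided permutation p = 0.822). None of the 3 genes was called here, where 0.011% of all rows were. The fit and the permutation pooled the sets, whose means were 7.74 (set 1) and 7.25 (set 2). Their spread therefore includes the difference between sets. Within the sets the genotypes differed by 0.22 (set 1) and -0.012 (set 2, exact permutation p = 0.8). Without kidneys 3818 and 3820 the difference over both sets was 0.09 (adjusted p = 0.939 from limma). The set 2 kidneys and WT kidney 3818 read near the median row (7.05), where background compresses differences. The interval from -0.36 to 0.49 therefore does not bound a change in the Gpd2 transcript.

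**Figure D1:**
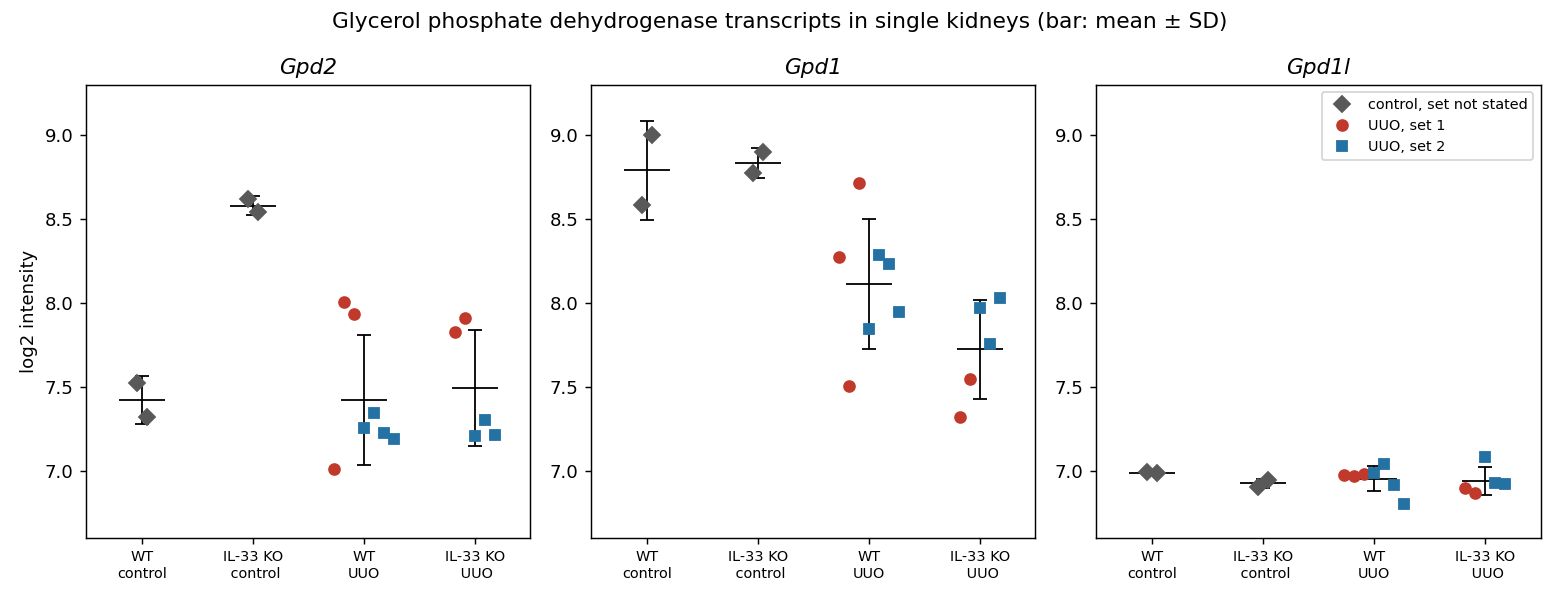
Log2 intensity (vertical axis) of Gpd2, Gpd1 and Gpd1l in each of the 16 kidneys by group. Points are kidneys, their shape gives the set of mice, and bars show the mean ± SD. Gpd2 is highest in the 2 IL-33 KO controls and falls into 2 levels after UUO, Gpd1 is lower after UUO, and Gpd1l stays between 6.80 and 7.08.

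Against the controls of its own genotype, Gpd2 was 1.09 lower after UUO in IL-33 KO kidneys and changed by 0.0023 in WT kidneys. Background compresses differences at the brightness of most WT kidneys, so the WT value does not bound a change in the transcript. The difference between these responses was -1.09, and their mean was -0.54. All these values contain the controls that chose the gene, so they are given without a test. The fall in IL-33 KO kidneys was -0.71 with the UUO kidneys of set 1 and -1.34 with those of set 2. In order of its mean level, Gpd2 ran from IL-33 KO controls (8.58 ± 0.06, SD, n = 2) through IL-33 KO UUO kidneys to the WT UUO kidneys and WT controls (7.42 ± 0.14, SD, n = 2), and these latter groups lay within their spread of each other.

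Among the obstructed kidneys, the level of Gpd2 followed the set of mice in all but 1 kidney. In set 1, 4 of 5 kidneys of both genotypes lay between 7.82 and 8.005, and the fifth, WT kidney 3818, was the lowest of all 16 at 7.01. In set 2, all 7 kidneys lay between 7.19 and 7.34. These values and that of 3818 were near the median row (7.05), where background compresses differences. Their narrow range therefore does not bound the spread of the transcript. With the genotypes fitted together, Gpd2 was 0.49 higher in set 1 (standard error 0.14, 95% interval from 0.18 to 0.80, 1.41-fold, adjusted p = 0.252 from limma), which did not pass, as for every other row (0% called, 1833 rows at an unadjusted p under 0.05). Without kidney 3818 the difference was 0.67 (adjusted p = 7.9e-05 from limma), and without both 3818 and 3820 it was 0.68 (adjusted p = 2.7e-04 from limma). This comparison was added after the values had been seen, and leaving out 3818 removes the one kidney of set 1 that lay low. Gpd1 differed between the sets by -0.15 (adjusted p = 0.855 from limma), and without both 3818 and 3820 by -0.52, which passed (adjusted p = 0.036 from limma). Without both, 3819 was the only WT kidney left in set 1. The share of all rows called with these kidneys left out was not counted, so the passes cannot be read as particular to Gpd2 or Gpd1. Gpd1l differed by -0.02 (adjusted p = 0.940 from limma). The summed intensities of all 10 marker lists overlapped between the sets, as did Gpd2 with kidney 3818 included. The thick limb and distal tubule markers had a median difference of 0.31 in the direction of Gpd2, with summed intensities of 11065 to 19468 in set 1 and 8032 to 13388 in set 2, and the erythroid markers one of 0.69, at 4465 to 20256 and 3711 to 13242, against 0.00087 for the median row. None of these markers was called, and their part in the Gpd2 difference was not tested. Because the controls carry no set, the difference in Gpd2 between the control genotypes could not be read within a set.

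Gpd1 fell after UUO. It was at 8.58 and 8.999 in the WT controls and at 8.77 and 8.90 in the IL-33 KO controls. After UUO the WT values were 8.27, 7.51 and 8.71 (set 1) and 7.84, 8.28, 8.23 and 7.95 (set 2). The IL-33 KO values were 7.32 and 7.54 (set 1) and 7.97, 7.75 and 8.03 (set 2). All IL-33 KO kidneys after UUO lay below all 4 controls, and in WT only kidney 3820 reached into the range of the controls. Averaged over the genotypes the log2 change was -0.89 with a standard error of 0.18 and a 95% interval from -1.27 to -0.52, a fall of 1.86-fold (adjusted p = 0.0011 from limma; exact two-sided permutation p = 0.0026). Without kidneys 3818 and 3820 the change was -0.97 (adjusted p = 1.1e-04 from limma). Gpd1 was the 1 called gene among the 2 tested here, where 28.2% of all rows were called, 14.5% lower and 13.7% higher.

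Within IL-33 KO kidneys Gpd1 fell by 1.11 (standard error 0.25, 2.16-fold, adjusted p = 0.0050 from limma), where 21.8% of all rows were called, 11.2% lower. The exact permutation p was 0.0476, the smallest that these kidneys allow, and without IL-33 KO control 3814 the adjusted p from limma was 0.0586. Within WT kidneys the change was -0.68 (standard error 0.24, 95% interval from -1.20 to -0.16, adjusted p = 0.0787 from limma; exact permutation p = 0.111), which did not pass, where 15.2% of all rows were called. Without kidneys 3818 and 3820 it was -0.83 and passed (adjusted p = 0.0096 from limma), and set 2 alone gave -0.71 (adjusted p = 0.0024 from limma). The number of all rows called in WT varied widely between such settings, as given at the end. These passes therefore cannot be read as particular to Gpd1. The responses of the genotypes differed by -0.43 (standard error 0.35, 95% interval from -1.19 to 0.32, adjusted p = 0.973 from limma), so a difference was not shown, and without kidneys 3818 and 3820 it was -0.28 (adjusted p = 0.959 from limma). No row was called in this comparison (0%, with 860 at an unadjusted p under 0.05).

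Between the genotypes after UUO, the mean of Gpd1 was 7.72 ± 0.30 (SD, n = 5) without IL-33 and 8.11 ± 0.39 (SD, n = 7) with it, a log2 difference of -0.39 with a 95% interval from -0.79 to 0.01 (adjusted p = 0.504 from limma; exact two-sided permutation p = 0.0909). The difference was -0.73 in set 1 and -0.16 in set 2, with exact permutation p = 0.3 and 0.286, where the smallest possible were 0.1 and 0.0286. The set 1 difference rested on WT kidneys 3818 and 3820, at 8.27 and 8.71. WT kidney 3819, at 7.51, lay between the IL-33 KO kidneys of that set, at 7.32 and 7.54. Over both sets, the difference shrank to -0.24 without kidneys 3818 and 3820 (adjusted p = 0.703 from limma). Without WT kidney 3819 it was -0.49 and passed the study's threshold (adjusted p = 0.222 from limma), a setting in which the rows called rose from 2 to 309. In the same contrast over all 12 kidneys, the 5 proximal tubule markers had a median of -0.46, against 0.0026 for the median row. None of the 5 was called, and their part in the Gpd1 difference was not tested.

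**Figure D2:**
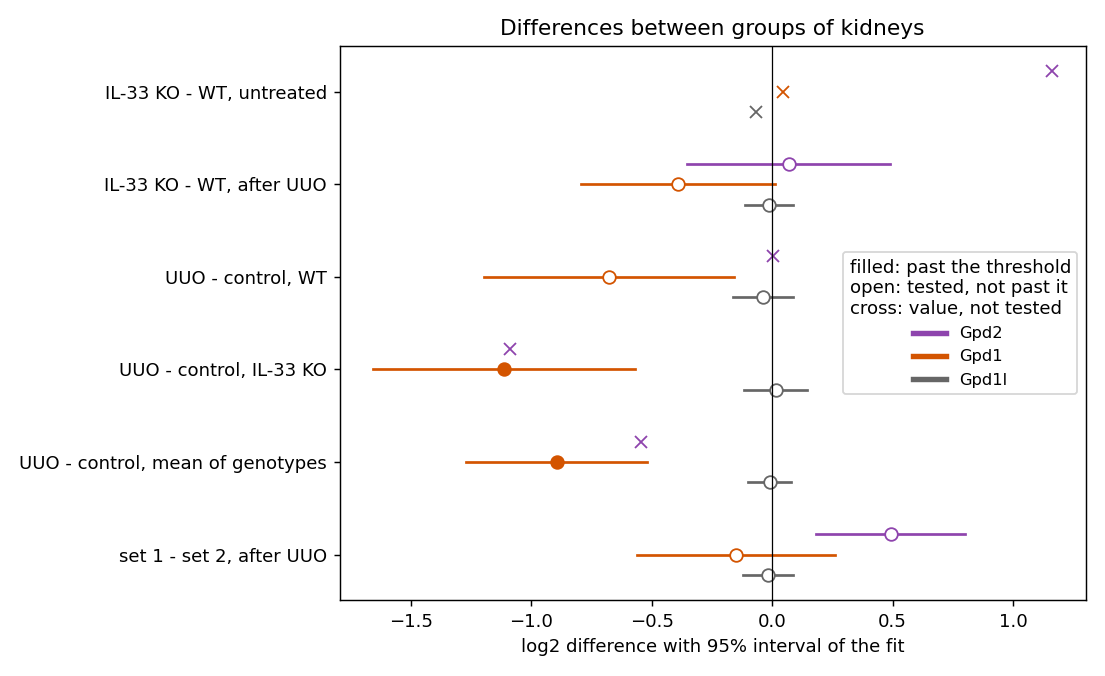
Log2 difference (horizontal axis) of each gene in 6 comparisons, with the 95% interval of the limma fit for values that were tested. Filled circles are past the threshold of their comparison, open circles are not, and crosses are values with no test. Gpd1 alone has filled circles, in IL-33 KO kidneys and in the mean of the genotypes after UUO, and the Gpd2 cross for untreated kidneys lies at 1.16.

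Markers of several kidney segments were lower after UUO along with Gpd1. For the proximal tubule the summed intensity was between 29043 and 30810 in the controls, 11906 to 28683 in WT and 7629 to 16328 in IL-33 KO kidneys after UUO, and 3 of the 5 markers measured were called lower in the averaged response, where 14.5% of all rows were. For the thick limb and distal tubule the sum was 17685 to 22737 in the controls and 8032 to 19468 after UUO, with 3 of 5 markers called lower. For the collecting duct it was 2297 to 2757 in the controls and 933 to 1896 after UUO, with 2 of 5 called lower, and of the 3 erythroid markers 2 were called lower. Other lists were mixed: of 4 smooth muscle markers 1 was called lower and 2 higher, and of 6 leukocyte markers 1 higher. Of 2 podocyte markers 1 was called lower, of 5 sex-linked genes 1 lower, and of 4 endothelial markers none. In whole kidney RNA, fewer cells of a type and less RNA per cell cannot be told apart, and the part of any of these in the fall of Gpd1 was not tested. Fat is a tissue rich in Gpd1, and adipocyte markers were near background: 8 of 9 lay below the median row, and their summed intensity was 1041 to 1092 in the controls and 1056 to 1550 after UUO, and none of the 9 was called.

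Gpd1l could not be followed on these arrays. Its 16 values lay between 6.80 and 7.08, with a mean of 6.95 below that of the median row (7.05). Xist, which male tissue does not express, was at 6.81 to 6.96 in the same kidneys, whereas the Y-linked Ddx3y and Eif2s3y were at 8.46 or above in all 16. Gpd1l differed between the genotypes after UUO by -0.01 (95% interval from -0.11 to 0.09, adjusted p = 0.958 from limma) and changed after UUO by -0.01 on average (adjusted p = 0.908 from limma). At this brightness the array background compresses differences, so these intervals do not bound a change in its transcript.

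The other genes of the pathway were read from lists by function, for the response to UUO averaged over the genotypes, in which the median row changed by -0.0011, and 14.5% of all rows were called lower and 13.7% higher. Of the enzymes that make or use glycerol 3-phosphate for lipid synthesis, 6 of 15 were called lower and 2 higher, with a list median of -0.23. Gpam, the mitochondrial acyltransferase that takes up glycerol 3-phosphate, fell by 0.27 (adjusted p = 0.010 from limma), as did Pgp, a phosphatase of glycerol 3-phosphate, by 0.27. The phosphatidate phosphatases went both ways, with falls of 0.62 in Lpin2 and 0.30 in Lpin1 and a rise of 0.17 in Lpin3. Agpat2, which adds the next acyl chain, rose by 0.36 (adjusted p = 0.0084 from limma), while Agpat5 and Agpat1, family members of that step named after their values were seen, fell by 0.24 and 0.23 (adjusted p = 0.0010 and 0.042 from limma). Gk, the kinase that makes glycerol 3-phosphate directly from glycerol, was dim (below the median row) and changed by -0.03 (adjusted p = 0.62 from limma).

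Of the genes that supply glycerol, 3 of 7 were called lower and 1 higher, with a median of -0.12. The glycerol channel Aqp3 fell by 1.57, lipoprotein lipase (Lpl) fell by 1.42, and Mgll, which frees the last fatty acid of a monoglyceride, fell by 0.55. Aqp9, another glycerol channel and a dim row, rose by 0.25.

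The malate-aspartate shuttle, the other route for cytosolic NADH, had 4 of 6 genes called lower and none higher, with a median of -0.44. Its carriers Slc25a12 and Slc25a11 fell by 0.74 and 0.54, cytosolic malate dehydrogenase (Mdh1) by 0.63 and the mitochondrial enzyme (Mdh2) by 0.35. Of the enzymes of cytosolic NADH and triose phosphates, 3 of 8 were called lower and 1 higher, with a median of -0.10. Of the aldolases, Aldoc fell by 0.90 and Aldoa rose by 0.26. Tpi1, which interconverts dihydroxyacetone phosphate and glyceraldehyde 3-phosphate, fell by 0.17 (adjusted p = 0.016 from limma). Ldha, the lactate dehydrogenase subunit that also recycles cytosolic NADH, was at 0.11 (adjusted p = 0.19 from limma).

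Of the other dehydrogenases that, like Gpd2, feed electrons to ubiquinone, directly or through a carrier protein, 9 of 13 were called lower and none higher, with a median of -0.36. Hydroxyproline dehydrogenase (Prodh2) fell by 1.29 and proline dehydrogenase (Prodh) by 1.17. Sarcosine dehydrogenase (Sardh) fell by 0.77, and Etfb, a subunit of the electron carrier that Sardh reduces, by 0.76. Gpd2 is a known target of thyroid hormone. Of the genes of that axis 5 of 11 were called lower and none higher, with a median of -0.15. Deiodinase 1 (Dio1) fell by 0.91, the hormone-induced Klf9 by 0.59, the corepressor Ncor1 by 0.47 and the receptor Thra by 0.40. The relation of this axis to Gpd2 was not tested. None of these 6 lists held a called gene between the genotypes after UUO, between the controls, or between the sets, where 0.011%, 0% and 0% of all rows were called.

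**Figure D3:**
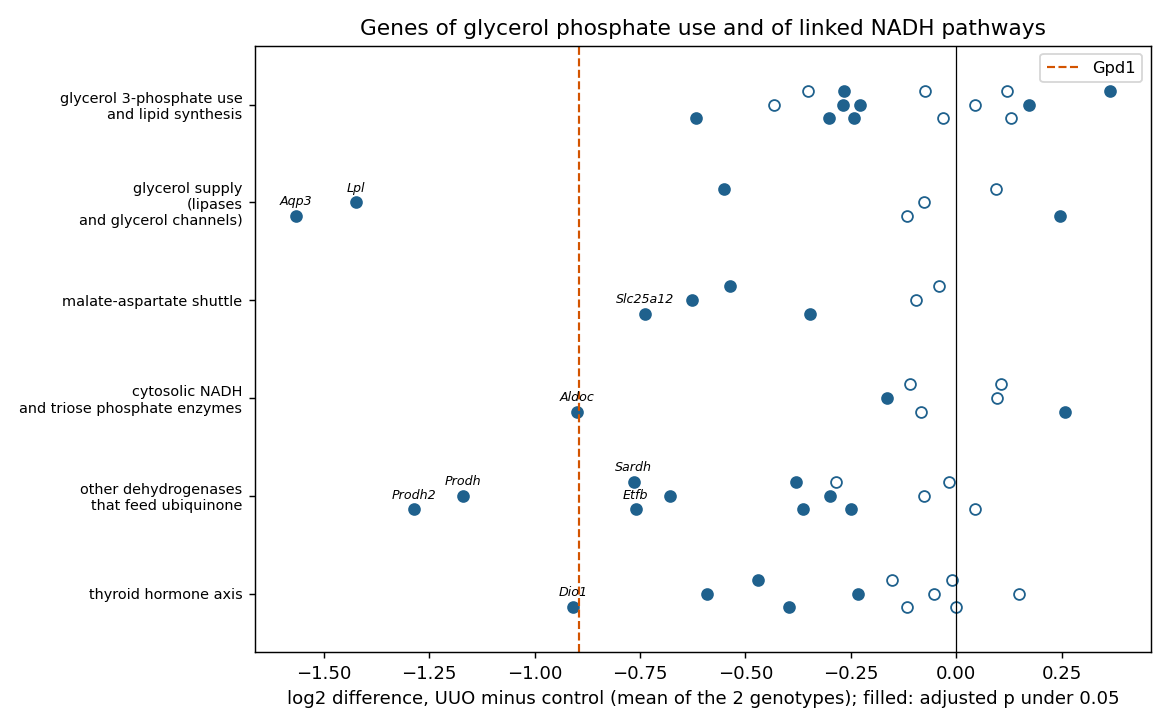
Log2 response to UUO averaged over the genotypes (horizontal axis) for genes of the 6 pathway lists (rows). Filled points have an adjusted p under 0.05 from limma, and the dashed line marks Gpd1 at -0.89. Filled points lie mostly left of 0, and the malate-aspartate, ubiquinone and thyroid lists have none to the right.

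Gpd1 and Gpd2 differed in how many other rows shared their pattern over the 16 kidneys, as described by Pearson's r with no test among the 9065 other rows at or above the median brightness. The arrays share groups and sets, so a large r says only that 2 rows moved alike across them. With Gpd1, 900 rows had an r over 0.8 and 270 an r over 0.9. The closest were Acad10 (0.97), Sypl2 (0.97), Gcdh (0.97), 9530058B02RIK (0.97) and Pcca (0.97). Gcdh and Pcca are mitochondrial enzymes of amino acid breakdown. With Gpd2, 4 rows had an r over 0.8 and none over 0.9. The closest were 1200002N14RIK (0.88), Prickle1 (0.85), HMGB2L1 (0.83) and Zbtb43 (0.82), and over the 12 obstructed kidneys alone their r was 0.92, 0.68, 0.75 and 0.71. These rows were picked over all 16 kidneys, the controls that chose Gpd2 among them. For Gpd1l no row exceeded 0.8, and the closest were 4930544G11Rik (0.74), Tfb1m (0.73), Aamp (0.69), Mab21l2 (0.68) and Pick1 (0.66).

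**Figure D4:**
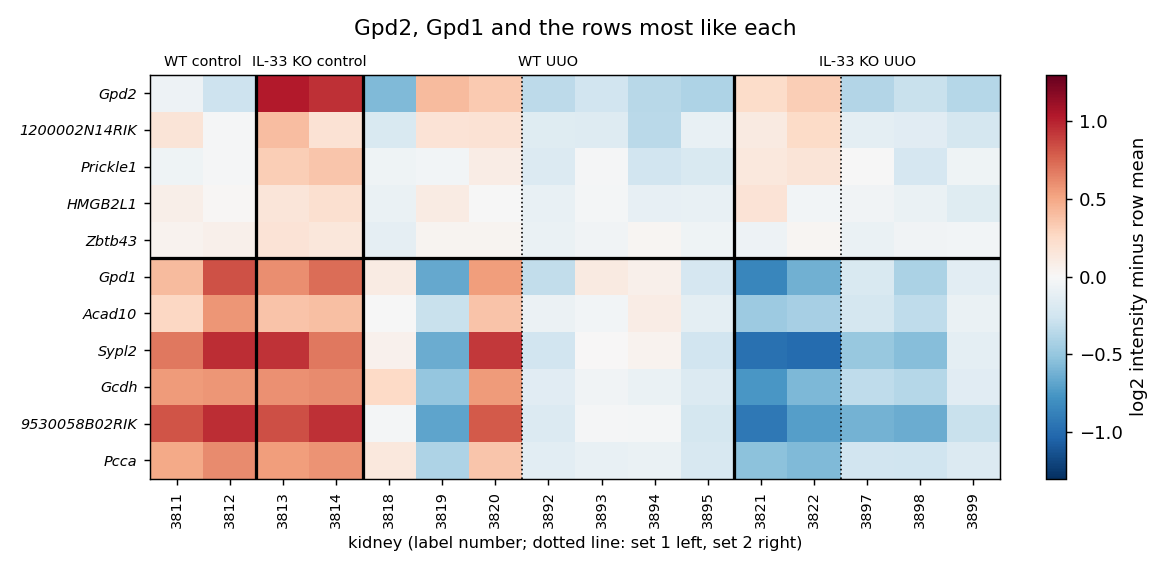
Log2 intensity minus the mean of each row (colour scale) for Gpd2 and Gpd1 with rows most like each (vertical) in the 16 kidneys by group and set (horizontal). The rows were picked for their likeness over these kidneys, and those like Gpd2 vary less across the kidneys than Gpd2 itself.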

How the data were processed

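Kidney RNA was hybridized to Illumina MouseRef-8 BeadChips. The authors imported the arrays with beadarray and deposited linear intensities, 1 per gene symbol, for 18132 rows and 16 arrays with no missing value. The submitters' processing notes also name BeadStudio 2. Background correction, normalization and the joining of probes are not given in the sources used here. Array medians lay between 132 and 133, and 10 arrays shared the highest intensity, so the deposited intensities had already been made alike. The lowest intensity, 95.5, is background and compresses differences of dim genes.

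Quantile normalization over the 16 arrays was applied to these intensities, followed by log2. Tests were those of limma (version 3.58.1, lmFit and eBayes, under R 4.3.3), and p-values were adjusted by Benjamini-Hochberg over every row. Genotypes were compared after UUO over the 12 UUO arrays, and responses in one model of the 4 groups. Exact permutation tests were two-sided and went through every arrangement of the labels (Python 3.11.15 with numpy 2.4.6). A test of the averaged response of Gpd2 had been planned and was left out, since the controls that chose the gene enter it. The methods were tested on simulated arrays. No detection p-values were used. Precision is limited by the number of arrays. The labels number the mice singly, 1 array each, so p-values measure the spread between mice. Where the sets were pooled, that spread includes the difference between sets.

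Named are the 3 genes, Il33, the neighbours of Gpd2, the 5 rows most correlated with each gene, Gk, Gpam, Mdh1, Tpi1, Ldha, and up to 4 called rises and 4 called falls of each pathway list. Got1, Ldhb, Gpat2, Sdha, Me1 and Ncoa1 were not matched to a row. Some items that this rule names are not reported here and are not drawn in the plots, while counts and medians of lists include them. The members and lists were chosen with earlier results of these data known. Alternatives were other normalizations, background subtraction, array weights, a prior variance that follows brightness, brighter rows, the set as a block, each set alone and leaving out arrays. The comparison of the sets, and leaving out 3818 and 3820 together, were chosen after seeing the data. Symbols, positions and promoter windows came from RefSeq (GRCm38.p6). Windows were listed for Gpd2 and Gpd1l.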

Additional observations from a re-analysis of the deposited data

Results flagged for a closer look

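Gpd1l was at 7.08 in IL-33 KO UUO kidney 3897, farther from the other 4 kidneys of its group, at 6.87 to 6.93, than their spread. Over 6 groups of 4 or more kidneys searched for the 3 genes, it was the 1 such value, and chance alone gives about 1 in 20 groups. The row is near background on all arrays.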

How the results depend on the processing

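Gpd2 between the genotypes after UUO turned sign with set 2 alone (-0.012) and ranged from -0.036 to 0.16 when 1 kidney was left out, negative without WT 3818, IL-33 KO 3821 or 3822. With background subtracted, the Gpd2 difference between the controls was 1.73 and that of Gpd1l -0.18, while the Gpd2 response in IL-33 KO kidneys was -1.64. The Gpd2 difference between the sets ranged from 0.41 to 0.67 when 1 kidney was left out, and was 0.68 without 3818 and 3820. Gpd1 in the WT response passed with array weights (-0.75), brighter rows (-0.68), set 2 alone (-0.71) and without 3818 and 3820 (-0.83), and ranged from -0.88 to -0.47 when 1 kidney was left out, passing without 3820. With 1 kidney left out Gpd1 ranged from -1.19 to -1.01 in the IL-33 KO response and from -0.49 to -0.29 between the genotypes after UUO, and without 3818 and 3820 it differed between the sets by -0.52 (adjusted p = 0.036 from limma). Gpd1l turned sign with set 2 alone between the genotypes after UUO (0.039) and in the mean response (0.00046), and with set 1 alone in the IL-33 KO response (-0.042) and the difference of responses (-0.026). With 1 kidney left out it ranged from -0.050 to 0.0041 between the genotypes after UUO, from -0.029 to 0.0018 in the mean response, from -0.021 to 0.036 in the IL-33 KO response and from -0.047 to 0.0074 between the sets. The averaged fall of Gpd1 passed in every alternative. The cause of these changes was not tested.

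Called rows between the genotypes after UUO numbered 2 and ranged from 0 (set 1 alone) to 309 (without WT 3819). For the mean response the range was 3225 to 5795 (5117 as reported), for WT 188 to 4241 (2754) and for IL-33 KO 2258 to 4565 (3955), lowest with set 1 alone in each. The lipid synthesis list had 3 to 8 called lower and 0 to 3 higher, lowest without WT control 3812. No paired analysis was possible because the groups share no replicate numbers.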
